A study of Mus musculus with 15 samples.

Results

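The genes described here encode the proteins of the mitochondrial ribosome. They were chosen by symbol alone, as every row of the deposited table whose symbol starts with Mrpl or Mrps and a number, leaving out pseudogenes. Of 76 such symbols, 75 reached 10 normalized counts in 3 or more of the 15 libraries and are called the members below, out of 17030 genes that passed the same filter and 26595 genes in the table. The symbol that did not pass was Mrpl53, at 0 in every KO and WT striatum library, at no more than 1.87 in KO cortex and at no more than 0.942 in WT cortex. All of its exonic bases are shared with other annotated genes.

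The libraries were made from bulk RNA of 2 brain regions of male C57Bl/6 mice aged 5 months, which were either knockouts of Slc1a4 (KO), the gene encoding ASCT1, a transporter of neutral amino acids, or wild type (WT). There were 3 libraries of KO striatum, 4 of WT striatum, 4 of KO cortex and 4 of WT cortex. The labels name no promoter, Cre line or deleted exon for the KO, and do not say whether the libraries of a group came from separate animals, so the p-values speak only of the spread among these libraries. In bulk tissue, fewer cells of a type and less RNA per cell cannot be told apart.

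Mitochondria translate a small set of respiratory chain subunits from their own genome on a dedicated ribosome. Its RNA comes from the mitochondrial genome, but all of its proteins are encoded in the nucleus, made in the cytosol and imported, so both genomes must be expressed together to build it. The ribosome has a small subunit, which decodes the messenger RNA, and a large subunit, which forms the peptide bond next to the inner membrane. Some of the proteins have counterparts in bacterial ribosomes and others occur only in mitochondria.

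By known placement, 48 members belong to the large subunit, 26 to the small subunit and 1, Mrps36, is a subunit of the 2-oxoglutarate dehydrogenase complex in spite of its name. The large-subunit proteins include Mrps30 and Mrps18a, whose symbols say otherwise. Of the 74 ribosomal members, 44 have a bacterial counterpart and 30 are specific to mitochondria. The members lie on 17 chromosomes. Of the 10 on chromosome 11, which also carries Slc1a4, the nearest is Mrps24 at 14.6 Mb.

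Slc1a4 itself checked the labels. It stood at 344, 311 and 158 normalized counts in KO striatum, against 1237, 1660, 1726 and 1509 in WT striatum, and at 252, 308, 249 and 251 in KO cortex, against 1591, 1613, 1797 and 1494 in WT cortex. Every KO library was below every WT library, and the fall was called in both tissues (striatum: log2 fold change -2.56, SE 0.20, limma adjusted p = 2.3e-05; cortex: -2.61, SE 0.19, adjusted p = 1.2e-05). Counted reads per library ranged from 23260155 to 24006391 in KO striatum, 22990233 to 25697792 in WT striatum, 28114119 to 30276815 in KO cortex and 26791109 to 29342263 in WT cortex. The tissue labels held: 5 markers of striatal projection neurons summed to 21858 to 104574 normalized counts in striatum libraries and 3492 to 10551 in cortex libraries, and 5 markers of cortical excitatory neurons to 1466 to 9835 in striatum and 42185 to 49890 in cortex. The striatum libraries were not alike in other respects. The summed level of 6 choroid plexus markers was 88657 in KO replicate 4 and 144824 in WT replicate 5, against 1858 to 6754 in the other striatum libraries, and 6 markers of neighbouring regions reached 37399 in KO replicate 4 and 22980 in WT replicate 8.

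The members were transcripts of middle abundance with a small spread. Their mean normalized count over the 15 libraries ran from 135 to 1691 with a median of 589, and 40726 to 51710 reads per library fell on them. Per kilobase of annotated exon their mean level had a median of 355 normalized counts and quartiles of 236 and 513. Large-subunit members had a median of 380 and small-subunit members one of 331 on this per-kilobase scale. The 5 highest were Mrps21 (1194), Mrpl42 (1015), Mrpl41 (954), Mrpl30 (915) and Mrpl20 (816). Mrps21 and Mrpl20 have bacterial counterparts, as does Mrpl30, and Mrpl41 and Mrpl42 are specific to mitochondria. The 5 lowest were Mrpl17 (77.4), Mrps35 (87.1), Mrpl1 (98.7), Mrpl32 (102) and Mrpl15 (112).

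This order leans on the annotated length. With the median length of a gene's protein-coding transcripts in place of all its exons, Mrps21, Mrpl41, Mrpl30 and Mrpl20 took places 3 to 6, Mrpl42 took place 10 and Mrpl32 took place 75. Mrpl17, annotated with 7605 exonic bases but a median coding transcript of 744, moved to place 14 with 792 normalized counts per kilobase. Across all 15 libraries the SD of a member's log2 level had a median of 0.127, against 0.27 for all genes tested. It was lowest for Mrpl3, which helps to build the peptidyl transferase region and is a human disease gene, at 0.0635, and highest for Mrpl48, a mitochondria-specific protein of the large subunit, at 0.342.

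**Figure D1:**
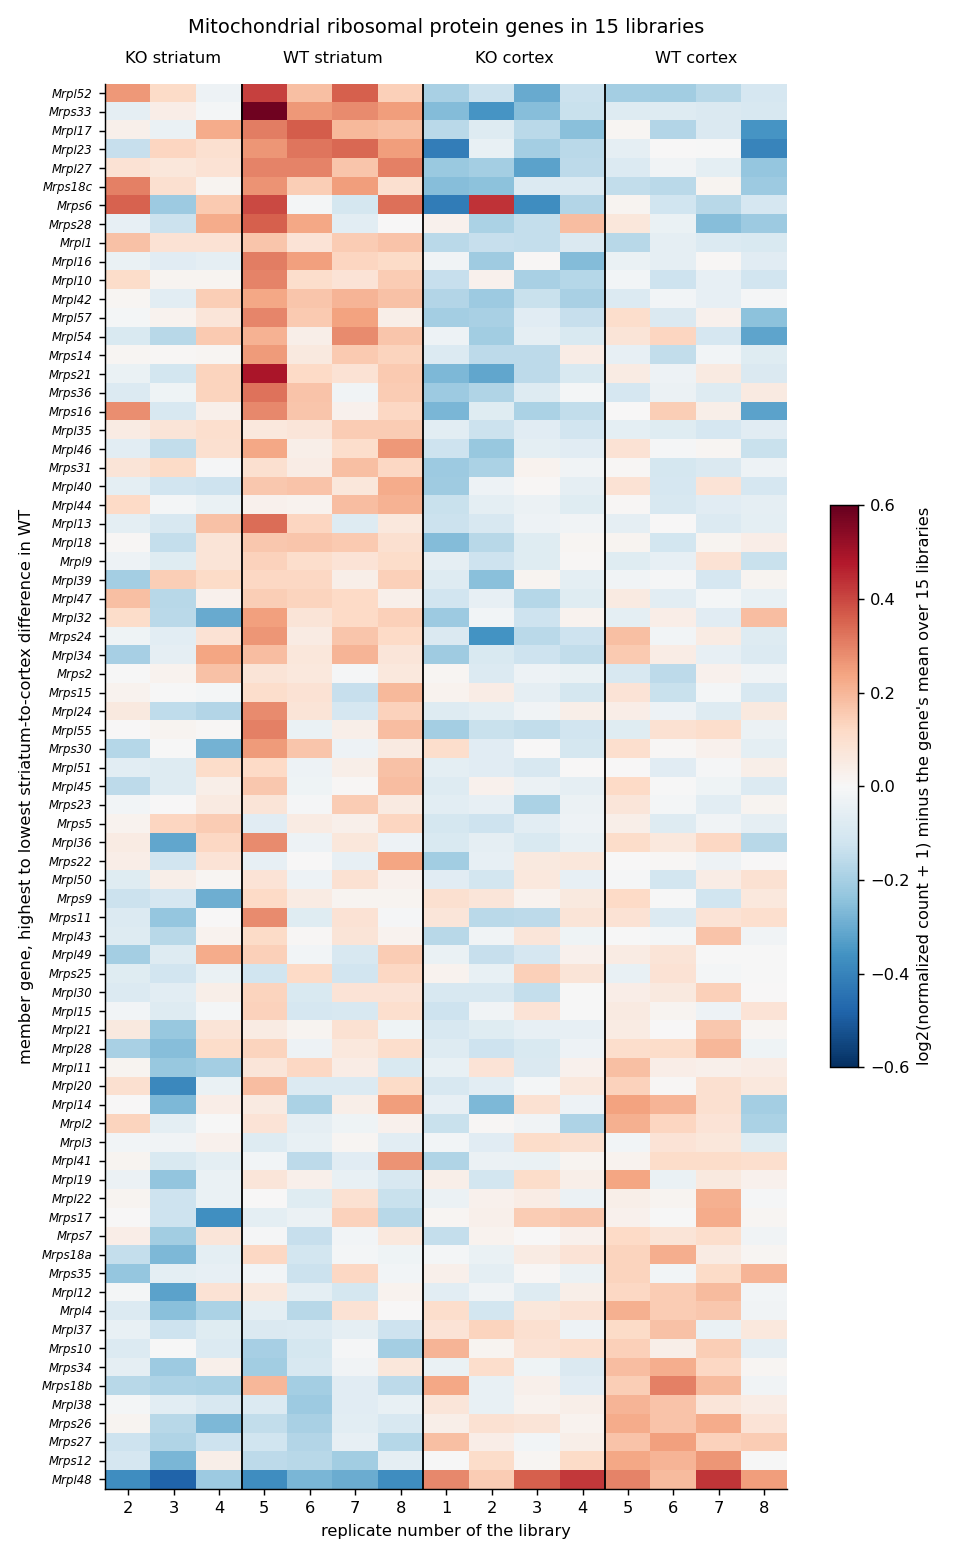
Each row is 1 of the 75 members and each column 1 of the 15 libraries, and the colour is log2(normalized count + 1) minus the gene's mean over the 15 libraries (red above, blue below). Rows run from the highest to the lowest log2 fold change of WT striatum over WT cortex, from Mrpl52 at 0.44 to Mrpl48 at -0.62. Most rows are paler than these.

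The first question was whether the loss of Slc1a4 moved these genes. No member passed the test in either tissue, but most lay slightly lower in KO. In striatum, 67 of 75 members had a log2 fold change of KO over WT below 0 (89.3%, against 48.3% of all genes tested), with a median of -0.106 against 0.00789 over all genes. In cortex 66 of 75 were below 0 (88%, against 49.5%), with a median of -0.0803 against 0.00124. The individual differences ran from -0.35 to 0.07 in striatum and from -0.22 to 0.08 in cortex, with median SEs of 0.08 and 0.074, so a typical member's difference was about the size of its error. In both tissues 61 members (81.3%) were below 0, against 29.7% of all genes, and Mrpl3, Mrps10 and Mrps2 were above 0 in both. The 2 tissues share no library, but replicate numbers recur in both. The labels do not say whether the tissues share animals, so they may not be independent of each other.

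The limma test with Benjamini-Hochberg adjustment called 0 of 75 members in striatum, where 0.0763% of all genes were called, and 0 of 75 in cortex, where 0.00587% were. At an unadjusted p below 0.05 there were 16 members in striatum (21.3%, against 15.3% of all genes) and 7 in cortex (9.33%, against 2.51%). These counts leaned on single libraries. In striatum there were 7 without KO replicate 3 (9.33%, against 12.1% of all genes), 8 without WT replicate 5 (10.7%, against 10.1%) and 14 without WT replicate 8 (18.7%, against 19.4%), so the members then stood below the share of all genes or close to it. They stood above it without KO replicate 2 (18.7%, against 16.4%) or 4 (25.3%, against 22.4%). So they did without WT replicate 6 (21.3%, against 15.6%) or 7 (17.3%, against 12.9%). In cortex there was 1 without KO replicate 2 (1.33%, against 1.56% of all genes). There were 3 without KO replicate 1 (4%, against 2.4%), KO replicate 3 (4%, against 2.11%) or WT replicate 5 (4%, against 1.68%). There were 2 without WT replicate 6 (2.67%, against 1.94%) or 7 (2.67%, against 2.28%). Leaving out KO replicate 4 gave 8 (10.7%, against 2.12%), and leaving out WT replicate 8 gave 13 (17.3%, against 3.76%). edgeR's quasi-likelihood test called 0 members in each tissue, where it called 0.0998% of all genes in striatum and 0.00587% in cortex. DESeq2 called 1 member in striatum (1.33%, against 2.13% of the 15004 genes to which it gave an adjusted p). In cortex it called 0 (against 0.0177% of 16981 such genes). Its 1 call thus lay below the share of such genes in striatum.

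A count of libraries, made on the same values and so not separate evidence, leaned the same way. Every KO library lay below every WT library for 10 members (13.3%) in striatum, where 4.12% of all genes did so. For 0 members did every KO striatum library lie above every WT striatum library, where 3.96% of all genes did. The 10 were Mrpl9, Mrpl16, Mrpl18, Mrpl23, Mrpl27, Mrpl40 and Mrpl42 of the large subunit and Mrps9, Mrps14 and Mrps33 of the small subunit. In cortex the count was also 10 below (13.3%, against 2.28% of all genes) and 0 above (against 1.73%). Those 10 were Mrpl21, Mrpl28, Mrpl30, Mrpl34, Mrpl41, Mrpl42 and Mrpl55 of the large subunit and Mrps21, Mrps24 and Mrps33 of the small subunit. Mrpl42 and Mrps33 stood on both lists. The members also moved together within a library, so the counts of members here and above are not counts of independent genes. In KO striatum 67 members lay below their tissue mean in replicate 3, but 34 in replicate 4. In WT striatum 13 did in replicate 5, but 44 in replicate 6.

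Mrps33, a small mitochondria-specific protein of the small subunit, gave the largest genotype difference of the members in striatum. It had 804, 859 and 827 normalized counts in KO striatum, against 1251, 999, 1016 and 992 in WT striatum. In cortex it had 697, 652, 700 and 761 in KO, against 790, 790, 785 and 780 in WT. The groups did not overlap in either tissue. WT striatum replicate 5 stood above the rest of its group. The log2 fold change was -0.35 in striatum (SE 0.08, 95% interval -0.52 to -0.18, limma adjusted p = 0.13) and -0.16 in cortex (SE 0.07, interval -0.32 to -0.01, adjusted p = 1). DESeq2 called it in striatum (-0.36, adjusted p = 0.0086).

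Mrpl42, a mitochondria-specific protein of the large subunit, had 692, 657 and 759 normalized counts in KO striatum, against 806, 770, 791 and 774 in WT striatum. Its cortex values were 608, 589, 626 and 600 in KO and 648, 679, 662 and 682 in WT. Both gaps were narrow and neither passed the test: the log2 fold change was -0.16 in striatum (SE 0.06, limma adjusted p = 0.24) and -0.14 in cortex (SE 0.05, adjusted p = 1).

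Further striatum differences did not pass the test either. Mrpl16, the counterpart of a bacterial protein of the large subunit, had 499, 490 and 494 in KO striatum, against 636, 609, 562 and 556 in WT striatum, a log2 fold change of -0.25 (SE 0.08, limma adjusted p = 0.18). Mrps9, the counterpart of a bacterial small-subunit protein, had 577, 588 and 515 in KO striatum, against 686, 653, 639 and 637 in WT striatum (-0.22, SE 0.07, adjusted p = 0.18). For Mrps9 the cortex went the other way, with 675, 663, 641 and 658 in KO and 685, 630, 581 and 660 in WT. Mrpl40 was at 385, 370 and 368 in KO striatum and 448, 451, 420 and 467 in WT striatum (-0.25, SE 0.08, adjusted p = 0.19). For Mrps30, which sits in the large subunit, the groups overlapped, at 454, 511 and 420 in KO striatum and 611, 573, 501 and 530 in WT striatum (-0.26, SE 0.09, adjusted p = 0.21). Mrpl27 differed by -0.19 (SE 0.07, adjusted p = 0.23).

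In cortex the member with the smallest p was Mrps24, the counterpart of a bacterial small-subunit protein. It had 358, 296, 339 and 348 normalized counts in KO cortex, against 431, 375, 393 and 360 in WT cortex (log2 fold change -0.22, SE 0.08, limma adjusted p = 1). The KO and WT libraries came within 2 counts of each other without overlapping. Mrpl28 was at 677, 657, 672 and 701 in KO cortex and 770, 773, 821 and 702 in WT cortex (-0.18, SE 0.08, adjusted p = 1), and Mrps21 at 483, 469, 522 and 547 in KO cortex and 602, 570, 605 and 548 in WT cortex (-0.20, SE 0.09, adjusted p = 1). Mrpl30 (-0.14, SE 0.06) and Mrpl55 (-0.17, SE 0.08) completed, with Mrpl42, the 6 members with the smallest p in cortex, each with an adjusted p of 1.

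Both subunits leaned the same way. Large-subunit members were below 0 in 44 of 48 cases in striatum and 46 of 48 in cortex, with medians of -0.115 and -0.0823. Small-subunit members were below 0 in 22 of 26 and 19 of 26 cases, with medians of -0.0576 and -0.0701. Members with a bacterial counterpart had medians of -0.112 in striatum and -0.085 in cortex, and those specific to mitochondria -0.0861 and -0.0669. Mrps36, the member outside the ribosome, stood at -0.15 in striatum (SE 0.09) and -0.08 in cortex (SE 0.08).

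**Figure D2:**
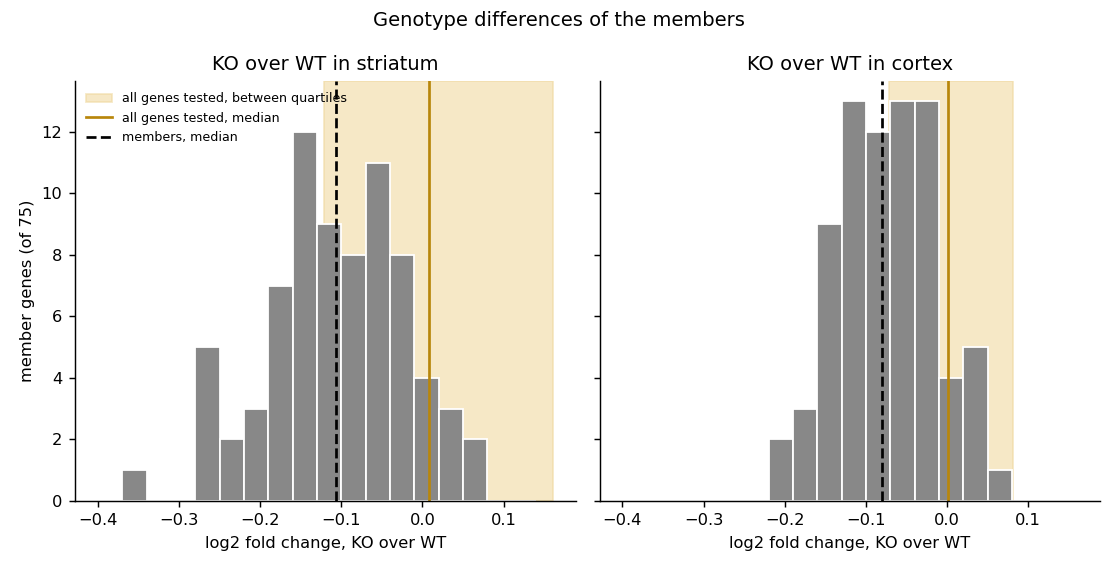
The histograms count members by log2 fold change of KO over WT in striatum (left) and cortex (right). The dashed line is the members' median (-0.106 and -0.0803), the solid line the median of all 17030 genes tested, and the shaded band the range between the quartiles of those genes. Most members lie left of 0 but close to it, and in striatum Mrps33 at -0.35 stands alone on the left.

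Members with a known particular role also gave small differences. Mrpl10, Mrpl11 and Mrpl12 form the stalk that calls elongation factors to the ribosome. Their log2 fold changes in striatum were -0.11 (SE 0.07), -0.18 (SE 0.08) and -0.06 (SE 0.09), and in cortex -0.04, -0.08 and -0.15. Mrpl45, which tethers the tunnel exit to the inner membrane, differed by -0.15 in striatum (SE 0.07) and -0.04 in cortex. Mrps12 lies at the decoding site, and Mrps16, Mrps22, Mrps34, Mrpl3 and Mrpl44 are human disease genes. Of these 6, Mrps12 (0.03) and Mrpl3 (0.04) stood above 0 in striatum, and the others ran from -0.09 to -0.02. The 3 paralogs Mrps18a, Mrps18b and Mrps18c differed by -0.15, -0.12 and -0.05 in striatum and by -0.08, -0.12 and -0.04 in cortex. None of these passed the test.

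Summed over the 75 members, the normalized count averaged 44226 ± 1548 in KO striatum (SD, n = 3) and 47303 ± 1332 in WT striatum (n = 4), 6.51% less in KO. The sum averaged 44378 ± 826 in KO cortex and 46469 ± 1192 in WT cortex (n = 4 each), 4.5% less in KO. In normalized counts the KO and WT libraries did not overlap in striatum (42483 to 45440 in KO, 45932 to 49062 in WT). They did in cortex (43687 to 45349 in KO, 44873 to 47485 in WT), where WT replicate 8 was low. Taken as a share of all counted reads, the KO and WT libraries overlapped in striatum as well. KO striatum replicate 4 had 42929 member reads of 24006391, a larger share than the 45205 of 25697792 in WT striatum replicate 6. The mean share was still lower in KO in both tissues. The gap in striatum thus depended on the scaling. The median deviation of the members from their tissue mean was lowest in KO striatum replicate 3, at -0.119 on the log2 scale, and highest in WT striatum replicate 5, at 0.11. Single libraries weighed on the striatum value: the median log2 fold change was -0.0723 with 56 members below 0 without KO replicate 3, and -0.0701 with 66 below 0 without WT replicate 5.

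**Figure D3:**
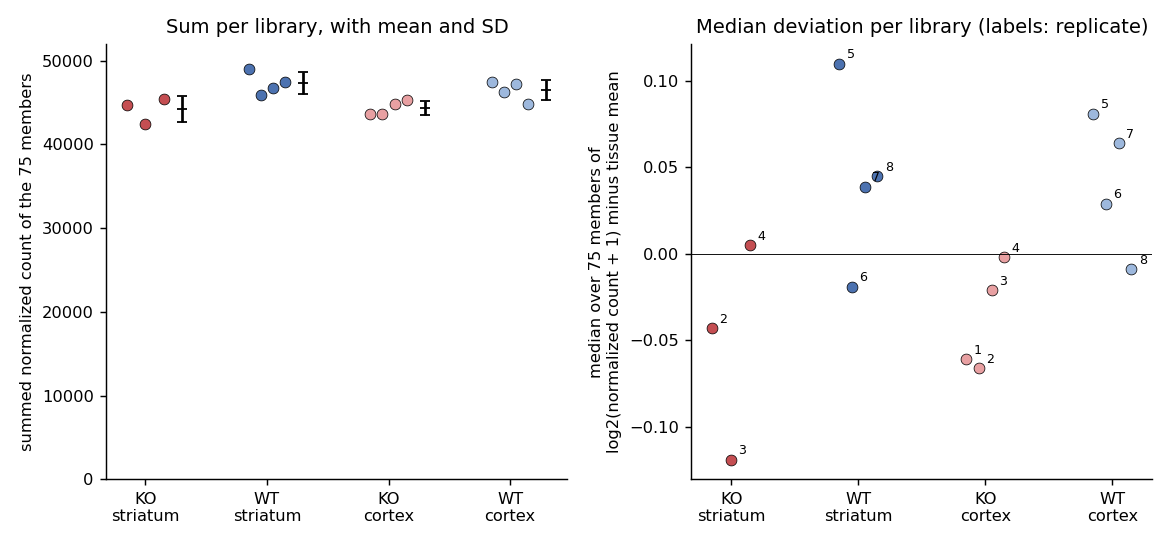
Left, the summed normalized count of the 75 members in each library (points), with the mean and SD of the group (bars). Right, the median over the members of log2(normalized count + 1) minus the gene's mean in that tissue, with replicate numbers, which is lowest in KO striatum replicate 3 (-0.119) and highest in WT striatum replicate 5 (0.11).

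Levels of cell type markers also differed between the KO and WT libraries. Of the marker lists in this paragraph, limma called only 1 of the 5 markers of cortical excitatory neurons between genotypes, in striatum (20%, against 0.0763% of all genes). In striatum the 5 markers of striatal projection neurons summed to 21858 to 47678 in KO and 44284 to 104574 in WT, and the 5 markers of cortical excitatory neurons to 4844 to 9835 in KO and 1466 to 4202 in WT. All 4 oligodendrocyte markers were below 0 in the genotype comparison of striatum, with a median log2 fold change of -0.28 and sums of 125881 to 256367 in KO and 180515 to 254292 in WT. So were all 4 microglia markers, with a median of -0.21 and sums of 5843 to 7233 in KO and 6675 to 7879 in WT. The KO and WT sums overlapped for both lists. Of 4 astrocyte markers 3 were below 0 (median -0.113), and the 3 endothelial markers were above 0 (median 0.131). In cortex the 6 choroid plexus markers summed to 1441 to 6376 in KO and 617 to 2032 in WT, and all 5 markers of striatal projection neurons were below 0 (median -0.548), with sums of 3577 to 7398 in KO and 3492 to 10551 in WT. The microglia and oligodendrocyte markers were below 0 in 3 of 4 cases each in cortex, with medians of -0.0872 and -0.0277. No marker of these lists was at 0 in all libraries of a group. Without KO striatum replicate 4 and WT striatum replicate 5, rich in choroid plexus markers, the members' median in striatum was -0.116 with 67 below 0. Without KO striatum replicate 4 and WT striatum replicate 8, rich in markers of neighbouring regions, it was -0.129 with 68 below 0, and limma called Mrps33 (-0.38, adjusted p = 0.038). That is 1.33% of the members, where 5.06% of all genes were called without these libraries. The part of these cell types in the genotype differences of the members was not tested.

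The difference between the genotype effects of the tissues, striatum minus cortex, was called for 0 of 75 members by limma, edgeR and DESeq2. limma and edgeR each called 0.00587% of all genes there, and DESeq2 called 0.11% of the 13694 genes to which it gave an adjusted p. Its median over the members was -0.0198, against -0.00088 over all genes, and 49 were below 0 (65.3%, against 50.2% of all genes). Only 1 member had an unadjusted p below 0.05 (1.33%, against 4.9% of all genes). That member was Mrps9, at -0.27 (SE 0.09, adjusted p = 0.96). Mrps30 (-0.23, SE 0.12), Mrpl40 (-0.19, SE 0.11), Mrps33 (-0.19, SE 0.11), Mrpl16 (-0.17, SE 0.10) and Mrpl38 (0.15, SE 0.09) came next, each with an adjusted p of 0.96. Without KO striatum replicate 3 the median was 0.00586, on the other side of 0.

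The second question, open to this design, was how the tissues differ. In WT, 23 of 75 members were called between striatum and cortex: 15 rose and 8 fell in striatum. That is 30.7% of the members, where limma called 50.5% of all genes (24.9% higher and 25.7% lower in striatum). Among the 7953 genes whose mean normalized count lay within the members' range, 52.3% were called. These tissue comparisons use the same libraries as the genotype comparisons, so their values are not independent of those above. Cell types differed between the tissues as well: 4 oligodendrocyte markers summed to 125881 to 256367 in KO striatum, 180515 to 254292 in WT striatum, 64783 to 77611 in KO cortex and 46278 to 100141 in WT cortex, and their part in the tissue differences was not tested. The tissue differences of the members were small. The median absolute log2 fold change was 0.134, against 0.323 for all genes and 0.265 for genes in that range, and 1 member (1.33%), Mrpl48, differed by more than 0.5, against 34.6% of all genes.

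In KO, 13 of 75 members were called, 8 higher and 5 lower in striatum. That is 17.3%, where limma called 37.9% of all genes (18.4% higher and 19.5% lower). Leaving out the 2 striatum libraries with most choroid plexus markers or, in turn, the 2 with most markers of neighbouring regions, gave 10 calls in KO each time (against 37.1% and 36% of all genes), and 20 and 22 in WT (against 52.6% and 54%). With the trends of the fold change with transcript length and GC content over all genes taken out, the KO calls became 11 (against 38.2% of all genes), of which 2 were higher and 9 lower; that correction put the median of all genes at -0.0354. In WT it gave 15 calls (against 49.2%), 10 higher and 5 lower. The members have a median of 1398 annotated exonic bases, against 3185 for all genes tested, and a median GC content of 50.1%, against 49.9%.

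The WT and KO tissue comparisons share no library. The 10 members called in both make up 43.5% of the WT calls and 76.9% of the KO calls, all in the same direction, and 63 of 75 members had the same sign in both. The same shares over all genes are not given here, so these counts do not set the members apart from other genes. Higher in striatum in both were Mrpl1, Mrpl27, Mrpl35, Mrpl42, Mrpl52, Mrps18c and Mrps33. Lower in both were Mrpl48, Mrps26 and Mrps27. Mrps5, Mrps9 and Mrps17 were called in KO but not in WT, and 13 members in WT but not in KO. As the difference between genotypes was called for 0 members, these calls are not shown to differ.

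**Figure D4:**
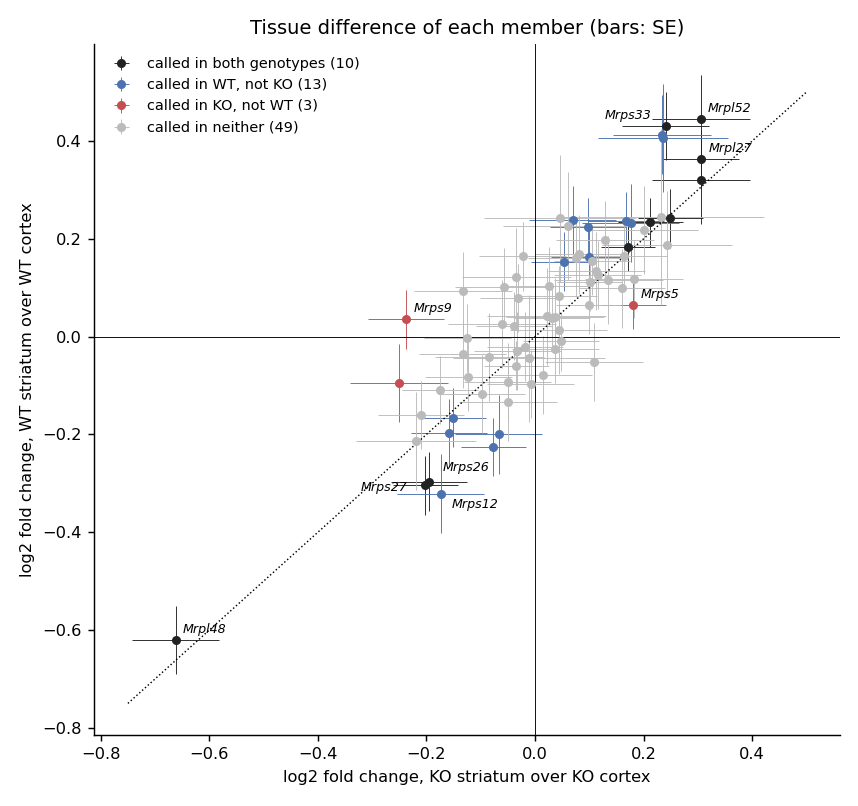
Each point is a member, with its log2 fold change of KO striatum over KO cortex on the x axis and of WT striatum over WT cortex on the y axis. Bars are SEs, colours give the genotypes in which the member was called, and the dotted line marks equal differences. Mrpl48 lies alone at -0.66 in KO and -0.62 in WT.

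Mrpl48 had the largest tissue difference of the members. It had 1122, 1043 and 1250 normalized counts in KO striatum, against 1774, 1614, 1865 and 1950 in KO cortex. In WT it had 1124, 1202, 1182 and 1123 in striatum, against 1788, 1657, 1958 and 1728 in cortex. Striatum libraries were below all cortex libraries in both genotypes. It fell in striatum by 0.66 in KO and by 0.62 in WT on the log2 scale (SE 0.08 and 0.07, limma adjusted p = 1.8e-05 and 7.9e-06). The gene spans chr7:100545751-100608301 on the minus strand (GRCm38), and 403 of its 4696 exonic bases (8.6%) are shared with Rab6a on the opposite strand. Rab6a, a GTPase of Golgi transport, also fell in striatum, averaging 13123 ± 1560 (n = 3) in KO striatum and 18154 ± 1034 in KO cortex, and 12326 ± 1123 in WT striatum and 17998 ± 748 in WT cortex (n = 4 each, log2 fold change -0.47 and -0.55). Since a strand setting of the counting is not stated in the sources used here, reads of the shared bases cannot be told apart.

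The other members that fell in WT striatum were mostly small-subunit proteins. Mrps27, a mitochondria-specific protein with repeats that bind RNA, had 520, 500, 546 and 501 normalized counts in WT striatum, against 635, 670, 621 and 627 in WT cortex (log2 fold change -0.30, SE 0.06, limma adjusted p = 0.00066). In KO it had 518, 498 and 518 in striatum and 639, 580, 558 and 578 in cortex (-0.20, SE 0.06, adjusted p = 0.022). The tissues did not overlap in either genotype. The gene spans chr13:99344786-99415562 on the plus strand, and 417 of its exonic bases (22.6%) are shared with a gene on the opposite strand.

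Mrps26 had 737, 714, 782 and 765 in WT striatum, against 952, 918, 952 and 864 in WT cortex (log2 fold change -0.30, SE 0.06, limma adjusted p = 0.0013), and its KO difference was -0.20 (SE 0.07, adjusted p = 0.035). Mrps12, the decoding-site protein, had 463, 460, 448 and 498 in WT striatum, against 607, 595, 621 and 516 in WT cortex (-0.32, SE 0.08, adjusted p = 0.0035). For Mrps12 in KO the groups overlapped, with 482, 427 and 529 in striatum and 516, 559, 522 and 560 in cortex (-0.17, SE 0.08, adjusted p = 0.12). Mrpl38 (-0.23), Mrps10 (-0.20), Mrps34 (-0.20) and Mrpl37 (-0.17) also fell in WT striatum. The small subunit, with 26 members, thus gave 5 of the 8 falls and 3 of the 15 rises in WT. These tallies include marginal calls. With a library left out, the fall of Mrps34 held in 7 of 15 fits. Among large-subunit rises, that of Mrpl9 held in 6 and that of Mrpl44 in 4. Calls in either direction were about as frequent in both subunits: 30.8% of small-subunit members and 31.2% of the 48 large-subunit members, against 50.5% of all genes. Whether the subunits differ in this was not tested.

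Of the 15 members that rose in WT striatum, 12 belong to the large subunit, which holds 48 of the 75 members. Mrpl52, specific to mitochondria, showed the largest rise, with 386, 329, 372 and 320 normalized counts in WT striatum, against 252, 251, 258 and 270 in WT cortex (log2 fold change 0.44, SE 0.09, limma adjusted p = 0.00062). In KO it had 348, 314 and 284 in striatum, against 253, 265, 235 and 265 in cortex (0.30, SE 0.09, adjusted p = 0.018). Every striatum library was above every cortex library in both genotypes. Mrpl52 spans chr14:54426909-54429756 on the plus strand.

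Mrpl27 is the counterpart of the bacterial protein whose tail reaches the peptidyl transferase centre. It had 714, 714, 652 and 718 in WT striatum, against 549, 573, 559 and 495 in WT cortex (log2 fold change 0.36, SE 0.06, limma adjusted p = 0.00023). In KO it had 618, 609 and 617 in striatum, against 498, 504, 466 and 521 in cortex (0.31, SE 0.07, adjusted p = 0.0025). Mrpl27 and Mrpl48 were the members called in KO under every alternative run. Mrps33, with the values given above, rose by 0.43 in WT striatum (SE 0.07, adjusted p = 0.00022) and by 0.24 in KO striatum (SE 0.08, adjusted p = 0.026).

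Mrpl17 and Mrpl23, counterparts of bacterial proteins near the exit of the peptide tunnel, rose in WT striatum and did not pass the test in KO. Mrpl17 had 722, 749, 667 and 660 in WT striatum, against 588, 516, 548 and 456 in WT cortex (log2 fold change 0.41, SE 0.08, limma adjusted p = 0.00091), and Mrpl23 had 276, 287, 291 and 273, against 221, 230, 229 and 174 (0.41, SE 0.11, adjusted p = 0.0059). In KO their differences were 0.23 (SE 0.09, adjusted p = 0.054) and 0.24 (SE 0.12, adjusted p = 0.13). Mrps18c rose by 0.32 in WT striatum and 0.31 in KO striatum, while its paralogs Mrps18a (-0.11 in WT) and Mrps18b (-0.21 in WT) did not pass the test. Mrpl1, the protein of the L1 stalk that guides spent tRNA out, rose by 0.24 in WT and 0.25 in KO. The stalk base protein Mrpl10 rose by 0.24 in WT, and Mrpl16 by 0.24, Mrpl42 by 0.23, Mrpl57 by 0.23, Mrps14 by 0.22, Mrpl35 by 0.18, Mrpl44 by 0.16 and Mrpl9 by 0.15.

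Mrps9, Mrps17 and Mrps5 were the members called in KO and not in WT. Mrps9 fell in KO striatum (577, 588 and 515, against 675, 663, 641 and 658 in KO cortex; log2 fold change -0.24, SE 0.07, limma adjusted p = 0.014). In WT its tissues overlapped (0.04, SE 0.06). Mrps17, a counterpart of a bacterial small-subunit protein, stood at 1476, 1355 and 1143 in KO striatum and 1488, 1507, 1638 and 1648 in KO cortex (-0.25, SE 0.09, adjusted p = 0.041), and Mrps5, likewise, at 1045, 1126 and 1144 in KO striatum and 958, 945, 986 and 1008 in KO cortex (0.18, SE 0.06, adjusted p = 0.025). In WT the differences of Mrps17 and Mrps5 were -0.09 (SE 0.08) and 0.06 (SE 0.05). Their KO calls were fragile. Mrps17 kept its call in 9 of 15 fits with a library left out and Mrps5 in 11. Each kept it in 5 of 10 other alternatives. Mrps9 kept its call in 14 and 7.

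**Figure D5:**
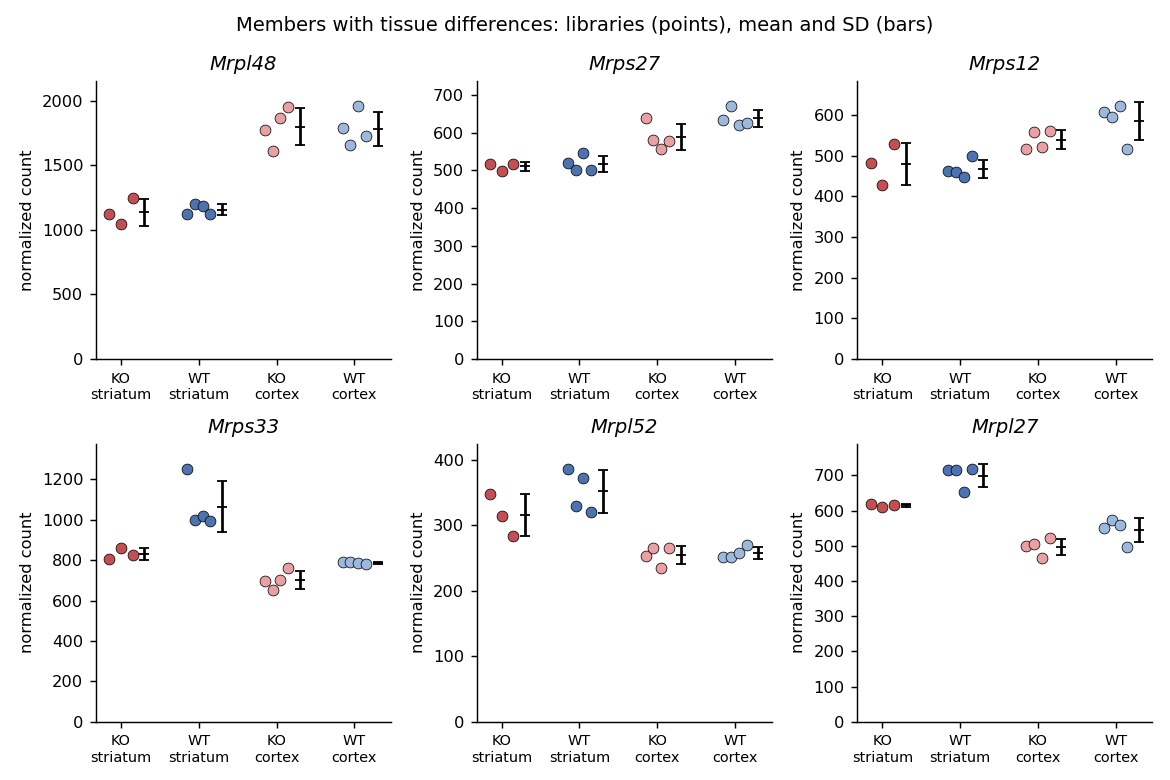
Normalized counts of 6 members in KO striatum, WT striatum, KO cortex and WT cortex; points are libraries, bars the mean and SD, and the axes start at 0. The upper genes fell and the lower genes rose in WT striatum: Mrpl48 had 1123 to 1202 in WT striatum and 1657 to 1958 in WT cortex, and Mrpl52 had 320 to 386 and 251 to 270.

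Of the 23 WT tissue calls, 17 held whichever library was left out and 11 held under every alternative run. These 11 were Mrpl10, Mrpl17, Mrpl23, Mrpl27, Mrpl42, Mrpl48, Mrpl52, Mrps12, Mrps26, Mrps27 and Mrps33. Of the 13 KO tissue calls, 4 held whichever library was left out and 2 held under every alternative run. How often calls of other genes held is not given here. The sum over all members averaged 47303 ± 1332 in WT striatum and 46469 ± 1192 in WT cortex (n = 4 each), 1.79% more in striatum and less than 1 SD apart. It averaged 44226 ± 1548 in KO striatum (n = 3) and 44378 ± 826 in KO cortex (n = 4). As a share of all counted reads, however, every KO striatum library lay above every KO cortex library. The lowest in KO striatum was replicate 3 (40726 of 23950965 reads), and the highest in KO cortex was replicate 4 (48603 of 28812515). In WT the tissues overlapped on that scale too.

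Counting limits touch some members beyond Mrpl48. Of the 75, 23 share exonic bases with another gene, and 8 share more than 20% of them. For Mrps6 305 of 846 exonic bases (36.1%) are shared with neighbours on the same strand that include Slc5a3, a myo-inositol transporter gene. Relative to its mean, Mrps6 had the widest spread of the members in KO striatum, WT striatum and KO cortex, but not in WT cortex. It had 461, 310 and 402 normalized counts in KO striatum, 474, 357, 335 and 453 in WT striatum, 269, 486, 278 and 319 in KO cortex and 364, 331, 321 and 336 in WT cortex. In KO cortex replicate 2, where Mrps6 was highest, Slc5a3 was highest as well, at 1970, against 1069 to 1154 in the other KO cortex libraries. The other groups were less alike. In KO striatum Slc5a3 had 2085, 2044 and 1898, and replicate 2 was highest for both genes. In WT striatum and in WT cortex Mrps6 was highest in replicate 5 and Slc5a3 in replicate 8.

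The promoters of nuclear genes for mitochondrial proteins are known for sites of NRF1, of ETS factors such as GABPA, and of YY1. RefSeq promoter windows (GRCm38.p6, 250 bases before to 50 after the annotated start) were matched by symbol for 66 members, in 72 windows. GCGCATGCG (NRF1), searched on both strands, occurred in 9.72% of member windows, 3.11% of the 14907 windows of genes tested and 1.75% of all 32851 windows. CCGGAAGT (ETS) occurred in 15.3% of member windows, 6.74% of windows of genes tested and 3.89% of all, and AAGATGGCG (YY1) in 11.1%, 2.51% and 1.4%. At least 1 of these 3 occurred in 34.7% of member windows and 11.7% of windows of genes tested. Other words were about as frequent as in genes tested: GGGCGG (SP1) 54.2% and 59.5%, CACGTG (the E-box) 9.72% and 9.25%, and TATAAA (the TATA box) 6.94% and 7.55%. None of the words contains another, and a match is a description of letters only.

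The following 4 windows belong to members with the tissue calls given above that held under every alternative in WT, and show each kind of word on a gene that rose or fell. Letters run 5′ to 3′ on the gene's strand, and capitals mark GCGCATGCG in Mrpl17, the reverse complement of CCGGAAGT in Mrpl52, AAGATGGCG in Mrpl42, and both of the last 2 kinds in Mrps27.
Mrpl17 (chr7:105811038-105811337, minus strand): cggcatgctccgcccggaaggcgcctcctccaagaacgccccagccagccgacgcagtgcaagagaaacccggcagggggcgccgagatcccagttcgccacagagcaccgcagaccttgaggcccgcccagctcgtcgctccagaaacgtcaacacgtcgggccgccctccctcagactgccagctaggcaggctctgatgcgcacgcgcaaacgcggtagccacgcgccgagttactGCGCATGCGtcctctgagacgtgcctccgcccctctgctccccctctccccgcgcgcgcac
Mrpl52 (chr14:54426659-54426958, plus strand): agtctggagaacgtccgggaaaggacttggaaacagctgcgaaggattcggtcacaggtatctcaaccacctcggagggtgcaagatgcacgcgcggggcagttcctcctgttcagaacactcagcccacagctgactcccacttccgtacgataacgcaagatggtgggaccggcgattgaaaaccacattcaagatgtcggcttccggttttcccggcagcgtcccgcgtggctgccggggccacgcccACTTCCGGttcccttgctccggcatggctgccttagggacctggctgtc
Mrpl42 (chr10:95501900-95502199, minus strand): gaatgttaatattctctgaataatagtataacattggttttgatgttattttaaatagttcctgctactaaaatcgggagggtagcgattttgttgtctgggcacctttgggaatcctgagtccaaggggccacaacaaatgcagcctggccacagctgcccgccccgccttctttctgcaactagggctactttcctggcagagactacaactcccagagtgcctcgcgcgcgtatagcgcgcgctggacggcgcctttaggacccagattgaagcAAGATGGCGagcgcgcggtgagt
Mrps27 (chr13:99344536-99344835, plus strand): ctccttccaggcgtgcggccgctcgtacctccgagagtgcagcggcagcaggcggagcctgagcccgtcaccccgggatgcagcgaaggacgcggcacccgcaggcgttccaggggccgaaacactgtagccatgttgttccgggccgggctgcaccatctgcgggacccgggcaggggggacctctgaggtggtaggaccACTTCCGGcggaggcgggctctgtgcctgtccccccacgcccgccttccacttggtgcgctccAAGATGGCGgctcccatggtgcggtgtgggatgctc
In Mrpl17, which rose in WT striatum, the word starts 11 bases before the annotated start. In Mrpl52 it starts at base 2 of the transcript, in Mrpl42 at base 28 and in Mrps27, which fell, the YY1 word starts at base 15. Of the 25 members with a match to NRF1, ETS or YY1, 12 (48%) were called between tissues in WT, and of the 41 with a window but no match 9 (22%) were. As 50.5% of all genes were called, the members with a match stood near that share and those without a match below it. In the genotype comparison 23 of 25 and 36 of 41 lay below 0 in striatum, with medians of -0.117 and -0.0958. The difference between members with and without a match was not tested.

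The rest of the mitochondrial translation apparatus gives the surroundings of these values. The 7 lists that follow hold 118 genes that passed the filter. limma called 0 of them between genotypes in striatum and in cortex, where 16 (13.6%, against 15.3% of all genes) and 4 (3.39%, against 2.51%) had an unadjusted p below 0.05. edgeR called 0 in both tissues. DESeq2 called 3 in striatum (2.54%, against 2.13% of the genes to which it gave an adjusted p) and 0 in cortex. Over the 118 genes together these shares are near those of all genes. The DESeq2 calls, however, all fell on the mitochondrially encoded genes, described last. In the tissue comparisons that follow, the share of all genes called was 50.5% in WT and 37.9% in KO. Of 7 mitoribosomal proteins named outside the rule or renamed since, 1 of which is a member, 3 (42.9%) were called in WT striatum against WT cortex. Ict1, the peptidyl-tRNA hydrolase that became a ribosomal protein and is now called Mrpl58, fell by 0.32, Gadd45gip1 fell by 0.20 and Mrpl57 rose. Of 15 mitochondrial translation factors 3 (20%) were called, all lower in WT striatum: Guf1 (-0.43), Gfm2 (-0.33), which recycles ribosomes, and Mtfmt (-0.24), which formylates the initiator tRNA.

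Of 27 factors that assemble or modify the mitoribosome, 9 (33.3%) were called in WT, 3 higher and 6 lower in striatum. They include Tfb1m, which methylates the small ribosomal RNA (0.69), Mettl17 (-0.63), Mrm1, a methyltransferase of the large ribosomal RNA (-0.61), and Trub2 (-0.40). Of 20 mitochondrial tRNA synthetases 10 (50%) were called, 2 higher and 8 lower, among them Aars2 (-0.68), Vars2 (-0.54), Hars2 (-0.44) and Tars2 (-0.35). Of 25 genes of mitochondrial DNA expression 11 (44%) were called, 6 higher and 5 lower, with Polg, the DNA polymerase (-0.39), Fastk (-0.35), Elac2 (-0.32) and Lrpprc, which stabilizes mitochondrial messenger RNA (0.29). Of 12 regulators of mitochondrial biogenesis, 3 (25%) were called: Gabpa (0.35) and Yy1 (0.20) rose and Atf4 (-0.40) fell. The share called was thus below that of all genes in each of these lists in WT, the synthetases standing closest to it. In KO, the tissue calls numbered 1 (14.3%), 2 (13.3%), 5 (18.5%), 6 (30%), 7 (28%) and 1 (8.33%) in the order given, again below the 37.9% of all genes.

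Between genotypes these lists did not lean one way in striatum. There 6 of the 7 proteins named outside the rule were below 0 (median -0.0382), 9 of 15 translation factors (-0.0366), 15 of 27 assembly factors (-0.00839), 7 of 20 tRNA synthetases (0.0362), 12 of 25 genes of mitochondrial DNA expression (0.00835) and 6 of 12 regulators (0.00771). In cortex the counts below 0 were 7 of 7 (median -0.0989), 10 of 15 (-0.0162), 19 of 27 (-0.0646), 16 of 20 (-0.0522), 14 of 25 (-0.00694) and 4 of 12 (0.0379) in the same order. The members' own medians were -0.106 in striatum and -0.0803 in cortex.

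The 12 mitochondrially encoded protein genes that passed the filter are the templates of this ribosome. In WT, 9 (75%, against 50.5% of all genes) were called, all higher in striatum, with a median log2 fold change of 0.516, and in KO 2 (16.7%, against 37.9%) were. Between genotypes all 12 lay below 0 in striatum, with a median of -0.29, and 8 of 12 in cortex, with a median of -0.0226. DESeq2 called 3 of these 12 between genotypes in striatum, CYTB, ND1 and ND4, where it called 2.13% of the genes to which it gave an adjusted p. They were its only calls there among the 118 genes of the 7 lists. For Nd4, a subunit of complex I listed as ND4, the mean was 99252 normalized counts in KO striatum and 122170 in WT striatum (-0.30, SE 0.10, limma adjusted p = 0.22).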

How the data were processed

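RNA of mouse striatum and cortex was measured by RNA-seq in 15 libraries. Per the submitters' processing notes, FastQC 0.11.5, cutadapt 1.1, TopHat2 2.1.1, HTSeq 0.6.0 and DESeq2 1.12.4 were used with GRCm38; role, strand setting and annotation release are not given there. The deposited signal values are normalized counts: the authors scaled the read counts of each library by a single factor, as the values themselves show, since 100% of them were whole multiples of 1 step within 0.001, so reads could be recovered.

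The fit took every gene that reached 10 normalized counts in 3 or more libraries (17030). The test was limma 3.58.1 (R 4.3.3) with a variance trend on log2(normalized count + 1), with 4 group means over all 15 libraries (11 residual degrees of freedom) and Benjamini-Hochberg adjustment over all genes tested. A gene was called below 0.05, and "rose" or "fell" is used only of calls. Fold changes are on this scale, intervals are 95%, errors of means are SDs. Alternatives were edgeR 4.0.16 and DESeq2 1.42.0 on the recovered reads, other scaling, pseudocount and filter, fits of 2 groups, a replicate block, removal of length and GC trends, and leaving out libraries. Scripts were tested on simulated data. Exons and positions came from GENCODE M21, which matched 99.011% of identifiers, and promoter windows from RefSeq (GRCm38.p6).

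Genes named are, in each comparison, up to 8 called members per direction with the largest change, or the 6 with the smallest p where fewer than 3 were called; the 5 highest and lowest per kilobase; those with a known role; the least and most variable; and up to 4 called genes of each related list. Members whose groups do not overlap, Mrps2, Mrps6 and genes that share exons with members were named after their values were seen. The members, lists and markers were chosen with earlier results of these data known.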

Additional observations from a re-analysis of the deposited data

Results flagged for a closer look

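In groups of 4 libraries, the highest or lowest value stood apart from the others (by Dixon's 95% criterion for the gap to the nearest value) in 9 of the 135 groups of values examined. Chance flags about 1 group in 20. None were in KO cortex, 5 in WT cortex and 4 in WT striatum; KO striatum, with 3 libraries, was not tested. WT striatum replicate 5 had 1251 normalized counts of Mrps33, against 992 to 1016 in the rest of its group, and 818 of Mrps21, against 619 to 650. This library was also the one with 144824 normalized counts of choroid plexus markers, and without it the log2 fold change of Mrps33 between KO and WT striatum was -0.27 (limma adjusted p = 0.19), against -0.35 with all libraries. WT striatum replicate 7 had 652 of Mrpl27, against 714 to 718, and replicate 8 had 436 of Mrps22, against 358 to 370. In WT cortex, replicate 5 had 796 of Mrpl11, against 718 to 725, and 750 of Mrpl41, against 791 to 797. WT cortex replicate 7 had 1719 of Mrps17, against 1474 to 1500, and 362 of Mrps22, against 371 to 372. WT cortex replicate 8 had 174 of Mrpl23, against 221 to 230.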

How the results depend on the processing

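No called value changed direction under the alternatives run. The count of 0 members called between KO and WT striatum became 1 with DESeq2 (Mrps33), 1 without the libraries rich in markers of neighbouring regions, an alternative chosen after the data were seen (Mrps33), and 0 to 1 with each library left out: 1 without KO striatum replicate 4 (Mrpl28, log2 fold change -0.29, limma adjusted p = 0.046) and 1 without WT striatum replicate 8 (Mrps33, -0.38, adjusted p = 0.046). A count of 1 is 1.33% of the members. limma called 3.03% of all genes without KO striatum replicate 4 and 1.1% without WT striatum replicate 8. It called 5.06% without the libraries rich in markers of neighbouring regions, and DESeq2 called 2.13% of the genes to which it gave an adjusted p. The members' share was thus below these shares or close to them. The count at an unadjusted p below 0.05 ranged from 7 to 19 in striatum and from 1 to 13 in cortex with each library left out. In cortex and for the difference between tissues the count was 0 under every alternative run. With each library left out, the tissue calls ranged from 18 to 24 in WT and from 9 to 15 in KO. They numbered 15 in WT with the length and GC trends removed (against 49.2% of all genes), and 5 in KO when only those 2 groups were fitted. For the fits with a library left out and the fit of 2 groups, the shares of all genes are not given here. Those counts therefore do not set the members apart from other genes. The members' median for KO striatum against KO cortex, 0.0376, was -0.0175 with the length and GC trends removed and -0.0078 without KO striatum replicate 4; for KO against WT these trends left it at -0.134 in striatum (all genes -0.038) and -0.0739 in cortex (all genes -0.02).

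Replicate numbers recur in both tissues, but nothing says that they mark an animal. Deviations from the group means correlated at 0.142, 0.115 and 0.088 for KO numbers 2, 3 and 4 and at 0.094, 0.063, 0.004 and 0.088 for WT numbers 5 to 8, and KO 3 and WT 7 correlated better with another number. With a replicate block the tissue calls were 19 in WT and 3 in KO. The shares of all genes called with the block are not given here either. A block cannot be fitted for KO against WT, since no number occurs in both genotypes. With median SEs of 0.074 to 0.08, the members' median differences of -0.106 and -0.0803 lay well below what limma could call here: Mrps33 at -0.35 was not called.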
